A study of Mus musculus with 6 samples.

Results

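The genes of mitochondrial traffic measured here were the rows of the deposited gene table whose symbol begins with Slc25a, Timm or Tomm followed by a digit. There were 72 such genes among 22322 in the table, 47 of the Slc25 family and 25 of the Timm and Tomm group. They were compared between 3 libraries of control DP thymocytes, from Paxbp1fl/fl mice with no Cre, and 3 libraries of Paxbp1 cKO DP thymocytes, from Paxbp1fl/fl Lckcre mice. DP thymocytes are the CD4+CD8+ precursors of T cells, and they were sorted from untreated thymus by flow cytometry. Both groups carried the floxed Paxbp1 alleles, and only the cKO mice carried the Lck-cre transgene, which acts in the T lineage from its early thymic stages. The mice were littermates of mixed sexes a few weeks of age. The question put to the libraries was whether a pathway of gene expression differs between the genotypes, since cKO DP thymocytes die more readily.

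The inner mitochondrial membrane lets few solutes through unaided. Proteins of the Slc25 family sit in it and exchange nucleotides, phosphate, carboxylates, amino acids, carnitine, cofactors and metal ions between the cytosol and the matrix. Nearly all mitochondrial proteins, these carriers among them, are made in the cytosol and imported: the TOM complex of the outer membrane takes them in, small TIM chaperones guide hydrophobic ones across the space between the membranes, the TIM22 complex inserts carriers into the inner membrane, and the TIM23 complex passes proteins with a cleavable leader toward the matrix. Thymocytes rely on both systems for respiration, and mitochondria are also the site where many apoptotic signals meet.

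The libraries held 18963775 to 26252248 counts on genes, so that 1 count was worth 0.0381 to 0.0527 CPM, a count scaled to the size of its library. Control replicate 1 stood apart from the other controls: it was the highest or lowest of its group for 86.9% of the tested members and for 79.3% of all tested genes. The other libraries were so for 47.5% to 72.1% of the tested members and for 57.5% to 68.7% of all tested genes. Transcripts of Y-linked genes were present in all 6 libraries (Ddx3y at 170 to 244 CPM), and 6 members lie on the X chromosome. The Y-linked genes did not move together. Eif2s3y was called lower in the cKO (log2 fold change -0.98, SE 0.19, edgeR adjusted p = 0.0135). Ddx3y (0.38), Uty (0.33) and Kdm5d (-0.03) were not called. The gene counts span all exons and so do not check the deletion of the floxed exon: Paxbp1 had 40.1, 16.3 and 15.5 CPM in the controls and 38.8, 47.1 and 49.6 CPM in the libraries labelled cKO, and each direction given here rests on those labels. All 12 DP thymocyte markers were detected in each library, at 130 CPM or more, and all 12 were lower in the cKO libraries. Of the 12, 4 passed the test, Bcl11b, Rag1, Cd3e and Cd8b1 (33.3%, beside 10.4% of all tested genes). All 9 tested markers of 10 for macrophages were higher in the cKO libraries, 4 past the test (44.4%, beside 10.4% of all tested genes). Their summed level was 6.79 to 26.2 CPM in the controls and 45.9 to 68.8 CPM in the cKO. Mertk was at 0 in all 6 libraries and Adgre1 at 0 in the controls. Summed erythroid markers, of which 5 of 8 were tested, all 5 lower and none at an unadjusted p below 0.05 in edgeR, lay at 26.6 to 141 CPM and 0.684 to 48.4 CPM, and summed B cell markers, with 1 of 5 tested and called lower (Cd79b), at 40.9 to 45.1 CPM and 25.7 to 28.8 CPM. The part of these cells in the values that follow was not tested, and in bulk RNA fewer cells of a type and less RNA per cell cannot be told apart.

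Of the 72 genes, 61 had enough counts for the test, and 6 of the 61 (9.84%) passed an adjusted p of 0.05 in edgeR's quasi-likelihood test, against 10.4% of all 11488 genes tested, so the share among the members was near the background. 2 of the 61 were higher and 4 lower in the cKO, beside 4.47% and 5.89% of all tested genes, and 15 of the 61 had an unadjusted p below 0.05, beside 27.9%. Slc25a13, a carrier of aspartate and glutamate, and Timm9, a small TIM chaperone, were higher in cKO DP thymocytes. Slc25a23, a calcium-dependent carrier of ATP-Mg and phosphate, Slc25a20, the carnitine-acylcarnitine carrier, Slc25a37 (mitoferrin 1), an iron carrier, and Tomm34, a cytosolic partner of import, were lower. 0 of the 6 changed by more than 1 on the log2 scale with edgeR or DESeq2, a size that 2.76% of all tested genes reached together with the adjusted p.

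Promoters of 3 called members are shown: Slc25a13 and Timm9, called higher, and Slc25a20, called lower. These genes and the motifs marked were picked after the calls were known, and a link between motif and change was not tested. They are RefSeq sequences of GRCm38.p6, read 5′ to 3′ on the gene's strand within the 250 bases before the annotated start, and the stretches given hold no annotated exon. The GENCODE annotation of GRCm38 places Slc25a13 at chr6:6041218-6217173, Timm9 at chr12:71123173-71136684, Slc25a23 at chr17:57043711-57059863, Slc25a20 at chr9:108662088-108684641, Slc25a37 at chr14:69241848-69285112 and Tomm34 at chr2:164053540-164071169. Capitals mark the E-box CACGTG, which reads the same on both strands, and CCAAT, searched on both strands. Not shown are the called members Slc25a23, whose upstream bases hold CCAAT and no E-box, and Tomm34, whose upstream bases hold neither. The Slc25a13 stretch is chr6:6217174-6217423 on the minus strand, the Timm9 stretch chr12:71136685-71136847 on the minus strand, and the Slc25a20 stretch, which holds neither motif, chr9:108661886-108662087 on the plus strand.
Slc25a13: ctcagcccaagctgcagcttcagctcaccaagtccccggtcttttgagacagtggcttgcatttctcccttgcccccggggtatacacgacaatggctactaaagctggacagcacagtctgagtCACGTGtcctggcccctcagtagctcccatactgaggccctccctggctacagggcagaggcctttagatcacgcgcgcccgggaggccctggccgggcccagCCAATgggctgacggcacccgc
Timm9: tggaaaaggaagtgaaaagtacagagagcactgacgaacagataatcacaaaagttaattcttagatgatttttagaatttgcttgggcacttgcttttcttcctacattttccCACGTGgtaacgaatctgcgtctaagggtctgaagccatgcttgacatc
Slc25a20: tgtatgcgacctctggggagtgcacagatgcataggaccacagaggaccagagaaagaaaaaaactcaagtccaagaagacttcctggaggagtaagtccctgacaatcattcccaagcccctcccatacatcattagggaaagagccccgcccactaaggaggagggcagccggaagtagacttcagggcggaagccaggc

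An E-box lay in the window of 9 of the 49 tested members that had one (18.4%), against 9.98% of the 9154 tested genes with a window and 6.86% of all 27025 genes with one, tested or not. The 9 were Slc25a1, Slc25a13, Slc25a14, Slc25a15, Slc25a33, Slc25a36, Timm8a1, Timm9 and Tomm20. Of these, 8 were higher in the cKO libraries and Slc25a1 was lower, with a median log2 difference of 0.45, and the 2 called members among them, Slc25a13 and Timm9, were both higher. The control and cKO libraries overlapped for Slc25a1, Slc25a14, Slc25a33, Slc25a36 and Tomm20. Among the 40 tested members without an E-box 22 were higher, the median log2 difference was 0.03, and the 3 called ones were lower. Over all 914 tested genes with an E-box 53.2% were higher and the median was 0.03, beside 48.6% of the 8240 tested genes whose window lacked it. The motifs were chosen after the calls were known, and the counts are a description with no test. CCAAT lay in 44.9% of the tested members' windows and 41.4% of those of all tested genes (37.5% of all windows). The palindrome of GCGCA followed at once by its reverse complement, a site of the mitochondrial regulator NRF1, lay in 0 of the 49 windows. It lay in 2.03% of the tested genes' windows and 0.877% of all windows, shares too small for 0 of 49 to stand out. Only this exact form was searched, so other forms of the site were not counted. Slc25a37 had no window in the RefSeq table.

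The level of the members per gene length was read from the deposited FPKM. Slc25a5, the main exchanger of ADP and ATP in dividing cells, was the highest member at 739, 890 and 917 FPKM in the controls and 851, 776 and 814 FPKM in the cKO. It alone made up 50.8% ± 2.40 (SD, n = 3) of the summed Slc25 FPKM in control and 49.7% ± 0.512 (SD, n = 3) in cKO DP thymocytes. Timm23, the channel protein of the TIM23 complex, came next at 291, 256 and 274 FPKM in the controls and 348, 315 and 365 FPKM in the cKO. Below it, with means over the 6 libraries, were Slc25a3, the phosphate carrier, at 197 FPKM, Tomm22, the central receptor of the TOM complex, at 105 FPKM and Tomm5, one of its small subunits, at 101 FPKM. The lowest tested member was Slc25a28 (mitoferrin 2) at 1.53 FPKM. The groups overlapped for Slc25a5 and were apart for Timm23. The plot of levels by library sets these values side by side.

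**Figure D1:**
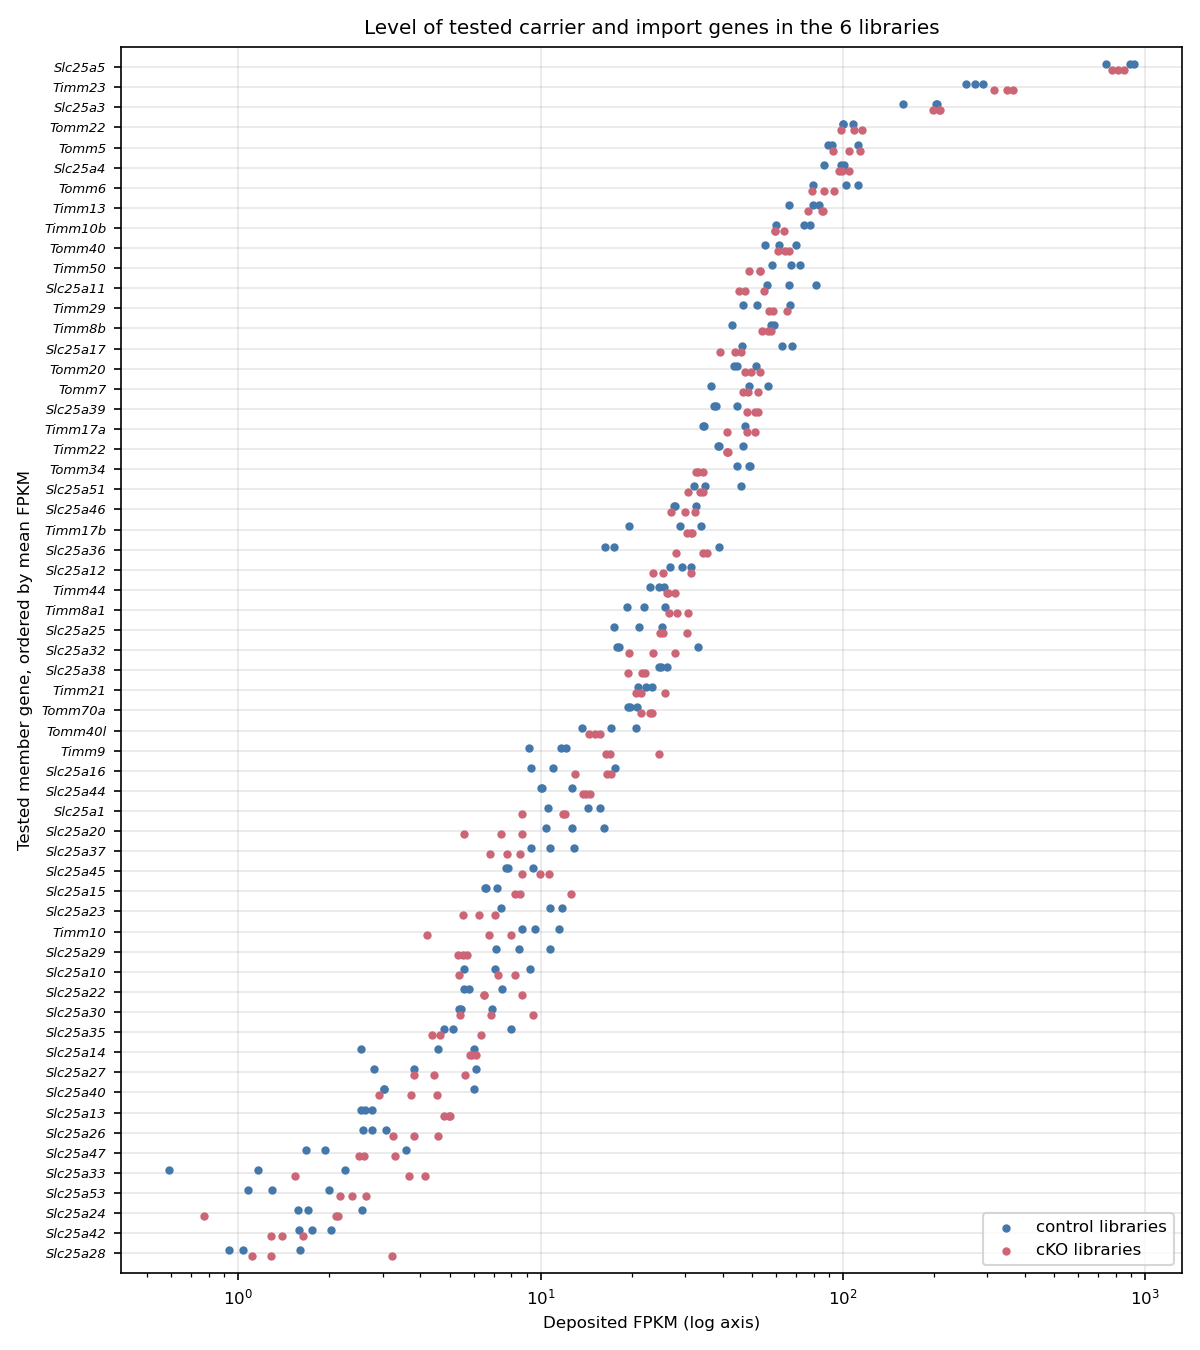
Deposited FPKM of 60 tested members (log axis), ordered by the mean over libraries, with 1 point for each of the 3 control and 3 cKO libraries. Slc25a5 leads with a mean of 831 FPKM, Timm23 follows with 308 FPKM, and Slc25a28 is lowest with 1.53 FPKM.

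The 11 genes below the count filter were Slc25a2, with 48 counts over the 6 libraries, Timm8a2 with 14, Slc25a18 and Slc25a43 with 13 each, Slc25a31 with 8, Slc25a41 with 4, Slc25a34 with 2, Slc25a54 with 1, and Slc25a21, Slc25a48 and Tomm20l with 0. Several of these are known from other tissues, such as Slc25a31, the ADP/ATP carrier of the germ line. Their differences were not detectable at this depth.

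Among carriers of ADP, ATP and phosphate, 1 of the 6 tested genes of 9 changed (16.7%, beside 10.4% of all tested genes), Slc25a23. It lay at 21.3, 29.2 and 30.5 CPM in the controls and at 14.3, 14.5 and 12.4 CPM in the cKO, with no overlap. The log2 fold change was -0.98 (SE 0.20, edgeR adjusted p = 0.0154). Its FPKM per CPM varied 1.65-fold between libraries, where most members varied by far less, and on the FPKM scale the groups were still apart, by a narrow margin, at 7.38, 11.8 and 10.8 against 6.25, 5.55 and 7.04. Slc25a23 overlaps 3433 bases (21.3% of the gene) of Gm17168 and 759 bases of Crb3, both on the other strand. Crb3 had 34 counts, and no source used here says whether strand was used in counting. The related carriers Slc25a24 and Slc25a25, which also bind calcium, had log2 differences of -0.24 (SE 0.41, edgeR adjusted p = 0.755) and 0.29 (SE 0.15, edgeR adjusted p = 0.240). The abundant carriers had small differences. The log2 difference was -0.08 (SE 0.12) for Slc25a5, 0.05 (SE 0.11) for its paralog Slc25a4, the form of heart and muscle, and 0.09 (SE 0.13) for Slc25a3.

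The carnitine-acylcarnitine carrier Slc25a20 brings fatty acids to the matrix for oxidation. It lay at 18.4, 29.2 and 23.1 CPM in the controls and 13.0, 9.84 and 15.5 CPM in the cKO, so the lowest control was above the highest cKO library. The mean fell from 23.5 ± 5.41 to 12.8 ± 2.84 CPM (SD, n = 3 each), a log2 fold change of -0.88 (SE 0.24, edgeR adjusted p = 0.0447). Of the 4 carriers of di- and tricarboxylates 3 were tested and 0 were called by edgeR (1 at an unadjusted p below 0.05, and 1, Slc25a11, with DESeq2), although all 3 had negative differences. The shares over all tested genes were 10.4% by edgeR, 27.9% at that unadjusted p and 16.9% by DESeq2. Slc25a11, the oxoglutarate-malate carrier of the malate-aspartate shuttle, was the nearest to the threshold at 93.7, 138 and 113 CPM against 92.9, 79.1 and 77.2 CPM. Its log2 difference was -0.46 (SE 0.16, edgeR adjusted p = 0.0842), and it overlaps 245 bases of Rnf167 on the other strand. Slc25a1, the citrate carrier, and Slc25a10, the dicarboxylate carrier, had log2 differences of -0.35 (SE 0.21) and -0.09 (SE 0.25).

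Slc25a13 (citrin) and Slc25a12 (aralar) both export aspartate for glutamate in the malate-aspartate shuttle. Slc25a13 was close to uniform within each group, at 7.98, 8.58 and 7.96 CPM in the controls and 15.3, 15.04 and 14.8 CPM in the cKO. It rose by 0.88 on the log2 scale (SE 0.21, edgeR adjusted p = 0.0261), while Slc25a12 lay at 78.0, 95.9 and 88.6 CPM and 72.2, 89.7 and 68.5 CPM, a log2 difference of -0.19 (SE 0.14, edgeR adjusted p = 0.434). Per gene length, Slc25a12 exceeded Slc25a13 by 11.04-fold in control and 5.39-fold in cKO DP thymocytes. The log2 FPKM ratio of the pair was 3.35, 3.51 and 3.53 in the controls and 2.34, 2.66 and 2.30 in the cKO, a difference of -1.03 (SE 0.13). With 3 libraries against 3 the exact two-sided permutation test cannot go below 0.1, the value found here (0.240 adjusted over the 12 pairs compared).

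Of the other 6 tested amino acid carriers 0 passed edgeR's test (3 at an unadjusted p below 0.05, and 1, Slc25a29, with DESeq2). Over all tested genes these shares were 10.4%, 27.9% and 16.9%. Slc25a29, a carrier of basic amino acids, lay at 21.0, 14.3 and 17.1 CPM in the controls and 10.5, 11.1 and 10.9 CPM in the cKO, without overlap (log2 difference -0.68, SE 0.21, edgeR adjusted p = 0.0656). The ornithine carrier Slc25a15 lay at 24.3, 22.9 and 22.9 CPM against 28.1, 29.0 and 43.4 CPM, without overlap, and its log2 difference of 0.52 (SE 0.19, edgeR adjusted p = 0.113) was 0.29 without cKO replicate 3, the highest library. The glycine carrier Slc25a38, which feeds haem synthesis, was 40.4 ± 0.104 CPM in the controls and 33.5 ± 1.98 CPM in the cKO (SD, n = 3 each), a log2 difference of -0.27 (SE 0.14, edgeR adjusted p = 0.234). The glutamate carrier Slc25a22 had a log2 difference of 0.16 (SE 0.21).

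The mitoferrins bring iron into the matrix for haem and iron-sulfur clusters. Slc25a37 lay at 49.2, 37.3 and 42.7 CPM in the controls and 31.9, 28.4 and 25.3 CPM in the cKO, with no overlap. Its log2 fold change was -0.59 (SE 0.17, edgeR adjusted p = 0.0482). The gene overlaps 4540 bases (10.5% of its span) of Gm20236 on the same strand, and shared reads cannot be told apart. Slc25a37 is abundant in erythroid cells. Their summed markers were 26.6, 141 and 58.5 CPM in the controls and 0.684, 34.3 and 48.4 CPM in the cKO, with overlap. The part of such cells in the change of Slc25a37 was not tested. Slc25a28, the form of other tissues, was near the limit of the test with 1.45, 1.34 and 1.98 CPM against 4.15, 1.77 and 1.48 CPM, and only cKO replicate 1 was high.

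Carriers of nucleotides, cofactors and glutathione formed the largest group that was wholly tested, and 0 of its 11 members passed edgeR's test (2 at an unadjusted p below 0.05, and 1, Slc25a17, with DESeq2). Over all tested genes these shares were 10.4%, 27.9% and 16.9%, so 0 of 11 does not set the group apart. The pyrimidine nucleotide carrier Slc25a33 had the largest log2 difference of all members, 1.23, but its libraries overlapped at 4.20, 2.21 and 1.13 CPM against 7.76, 2.86 and 6.92 CPM (SE 0.54, edgeR adjusted p = 0.172). The related carrier Slc25a36 lay at 153, 70.9 and 75.0 CPM in the controls and 142, 114 and 152 CPM in the cKO: control replicate 1 was the highest library, and without it the log2 difference went from 0.45 to 0.89 and passed the test. The peroxisomal carrier Slc25a17, named here after its values were seen, lay at 78.2, 105 and 118 CPM against 74.6, 71.1 and 63.3 CPM and narrowly missed the threshold (log2 difference -0.53, SE 0.16, edgeR adjusted p = 0.0629). Log2 differences were 0.11 (SE 0.22) for Slc25a32, the folate and flavin carrier, and -0.13 (SE 0.13) for Slc25a51, the NAD+ carrier. They were 0.45 (SE 0.28) for Slc25a26, the S-adenosylmethionine carrier, 0.25 (SE 0.13) for Slc25a39 and -0.17 (SE 0.27) for Slc25a40, both of which serve glutathione import.

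**Figure D2:**
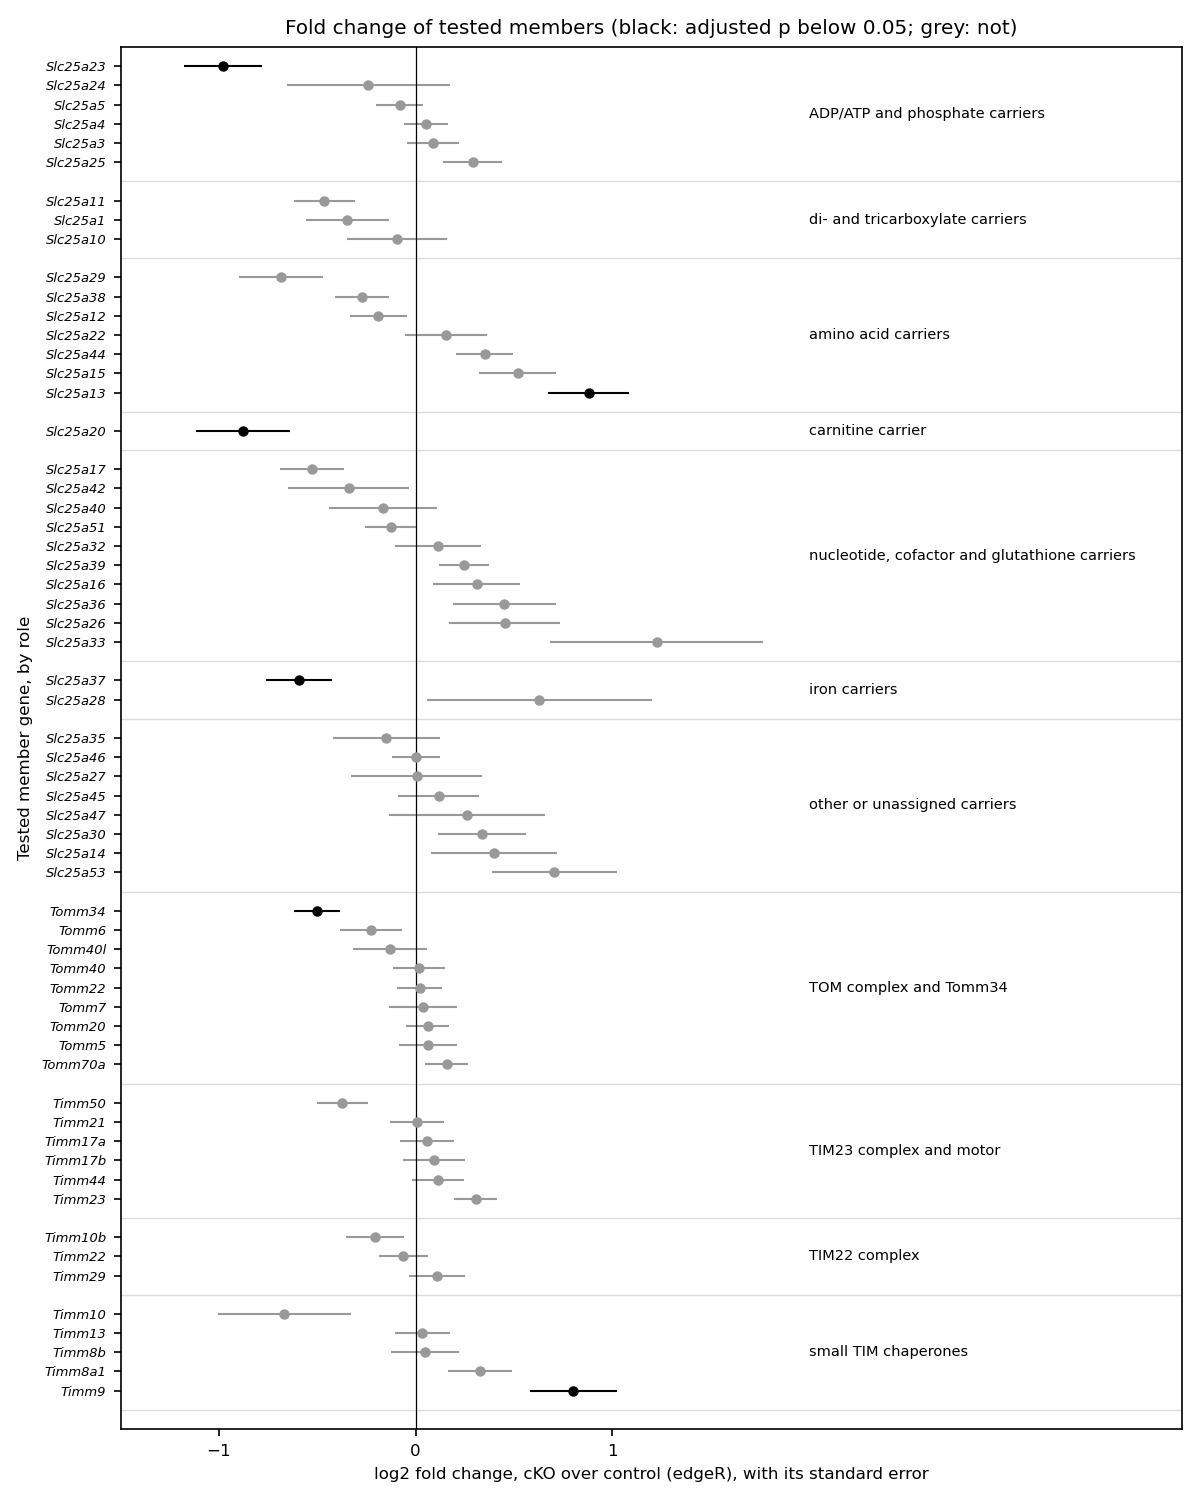
Log2 fold change of cKO over control from edgeR for 60 tested members, grouped by role, with bars for the standard error. The 6 called members are black, 4 left of 0 and 2 right of it, and the other 54 are grey.

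Among the 23 tested Timm and Tomm genes 2 passed the test, Tomm34 and Timm9 (8.70%, beside 10.4% of all tested genes). The median absolute log2 difference was 0.110 in this group and 0.301 over the 38 tested Slc25 genes, beside 0.295 over all tested genes, while the median SE was 0.14 and 0.21 in the 2 families. In the TOM complex the pore Tomm40 lay at 86.1, 98.3 and 113 CPM in the controls and 104, 100 and 96.3 CPM in the cKO. Its log2 difference was 0.02 (SE 0.13), and those of the receptors were 0.06 (SE 0.11) for Tomm20, 0.02 (SE 0.12) for Tomm22 and 0.16 (SE 0.11) for Tomm70a. Each of these was smaller than its SE except that of Tomm70a, a receptor for carrier precursors, whose groups were apart and whose edgeR adjusted p was 0.379.

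Tomm34 bears the family's name and is a cytosolic protein that binds chaperones and unfolded precursors. It lay at 101, 99.0 and 90.8 CPM in the controls and 66.7, 67.3 and 71.1 CPM in the cKO, a gap wider than either group's range. It fell by 0.50 on the log2 scale (SE 0.12, edgeR adjusted p = 0.0260). Tomm34 overlaps 848 bases (4.81% of the gene) of Stk4 on the opposite strand. Stk4 had 61541 counts against 10502 for Tomm34 and a log2 difference of -0.40 (SE 0.12, edgeR adjusted p = 0.0614). No source used here says whether strand was used in counting, so reads of the shared stretch cannot be told apart.

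Of the 6 genes of the TIM23 complex and its motor 0 passed edgeR's test (2 at an unadjusted p below 0.05, and 1, Timm23, with DESeq2). Over all tested genes these shares were 10.4%, 27.9% and 16.9%, which are also the background for the TIM22 complex below. Timm23 lay at 334, 302 and 325 CPM in the controls and 402, 362 and 424 CPM in the cKO, with no overlap, and its log2 difference was 0.31 (SE 0.11, edgeR adjusted p = 0.101, DESeq2 adjusted p = 0.0486). Timm50, the receptor of the complex, had a difference of the opposite sign, at 87.5, 103 and 112 CPM against 73.6, 79.4 and 80.6 CPM (log2 difference -0.37, SE 0.13, edgeR adjusted p = 0.0926). Timm17a and Timm17b, alternative subunits beside the channel, had log2 differences of 0.06 (SE 0.14) and 0.09 (SE 0.16), and Timm44, which tethers the import motor, 0.11 (SE 0.13). Summed over the 6 genes the complex held 674, 655 and 675 CPM in the controls and 723, 715 and 759 CPM in the cKO, with no overlap. Without Timm23 the sums overlapped, at 340, 354 and 351 CPM in the controls and 321, 354 and 335 CPM in the cKO. In the TIM22 complex 0 of 3 genes passed edgeR's test (0 at an unadjusted p below 0.05, 0 with DESeq2), and Timm22 itself had a log2 difference of -0.06 (SE 0.12).

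The small TIM proteins work as rings in the space between the membranes, Timm9 with Timm10 and Timm8 with Timm13. Timm9 lay at 9.23, 9.97 and 9.55 CPM in the controls and 20.9, 14.99 and 14.3 CPM in the cKO, so each cKO library was above each control and cKO replicate 1 was highest. It rose by 0.80 on the log2 scale (SE 0.22, edgeR adjusted p = 0.0470). Its partner Timm10 lay at 5.91, 6.68 and 8.07 CPM against 5.48, 2.86 and 4.66 CPM, also without overlap but in the other direction, a log2 difference of -0.67 (SE 0.34, edgeR adjusted p = 0.232). The log2 FPKM ratio of Timm10 to Timm9 was -0.07, -0.34 and -0.03 in the controls and -1.63, -2.01 and -1.28 in the cKO, which is 0.901-fold and 0.321-fold. The pair's difference of -1.49 (SE 0.23) was the largest of the 12 pairs, with an exact two-sided permutation p of 0.1, the smallest possible, and 0.240 adjusted. Timm8a1, Timm8b and Timm13 had log2 differences of 0.33 (SE 0.16), 0.05 (SE 0.18) and 0.03 (SE 0.14).

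**Figure D3:**
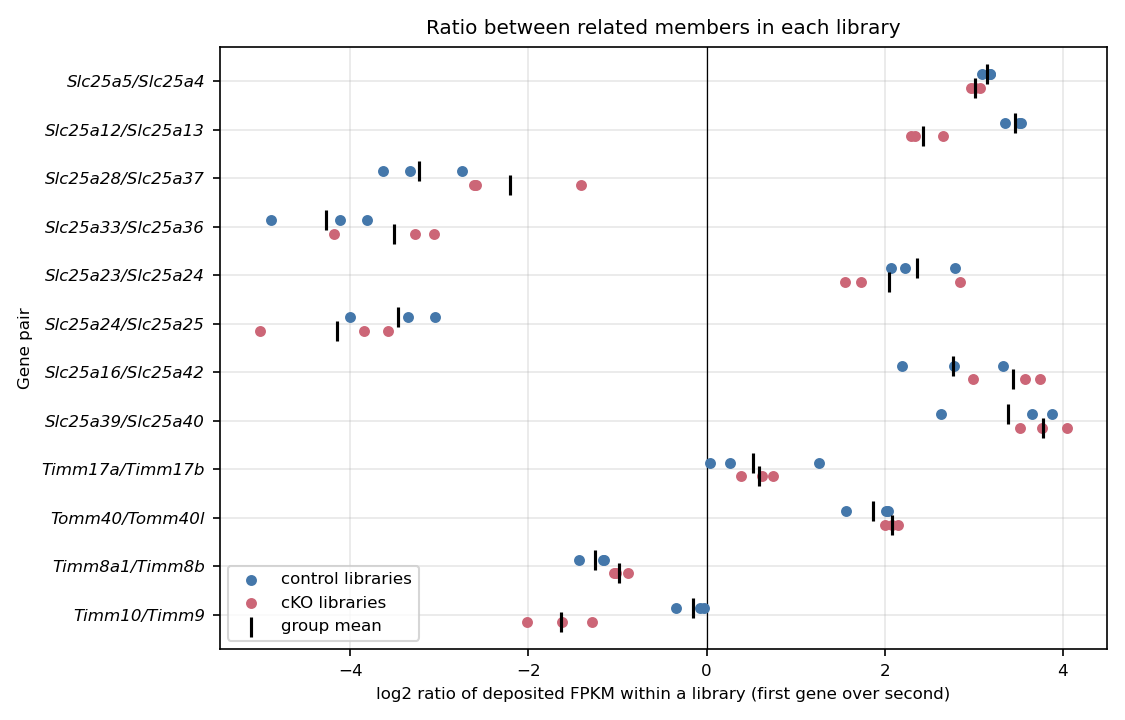
Log2 ratio of the deposited FPKM of the first gene to the second within each library, for the 12 pairs, with points for the 3 control and 3 cKO libraries and a vertical mark for each group mean. The group means of Timm10/Timm9 lie at -0.15 and -1.64 and those of Slc25a12/Slc25a13 at 3.46 and 2.43, and the points of the groups do not overlap in either.

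The groups were apart in 5 of the 12 pairs of related or partner genes. Besides Slc25a12 with Slc25a13 and Timm10 with Timm9, these were Slc25a5 with Slc25a4 (difference of log2 ratios -0.13), Slc25a28 with Slc25a37 (1.03) and Timm8a1 with Timm8b (0.27). No share over other gene pairs was taken, and 33% of all tested genes were apart singly in CPM. The pairs were chosen with earlier results known. Slc25a13, Timm9 and Slc25a37 were called singly, so the ratios of their pairs partly restate those calls. Slc25a28 was near the limit of the test and high only in cKO replicate 1. The difference of its pair ranged from 0.63 to 1.27 with 1 library left out. All 5 pairs had the same exact p of 0.1 and 0.240 adjusted over the pairs, so none passed a threshold of 0.05, which this number of libraries does not allow. In the other 7 pairs the cKO and control ratios overlapped. The GENCODE annotation holds a transcribed pseudogene of Slc25a5 (Slc25a5-ps), and no source used here says how reads shared with it were assigned.

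Over the whole set the groups were apart in 21 of 61 members, 11 higher and 10 lower, against 33% of all tested genes (15.7% higher and 17.3% lower), a share close to the background (34.4% of the members). The median log2 difference was 0.05 over the members, 0.06 for Slc25 and 0.04 for Timm and Tomm genes, beside -0.00172 over all tested genes, and 38 members were higher and 23 lower where 49.8% of all tested genes were higher. Summed over the family, Slc25 genes held 2689, 2891 and 2938 CPM in the controls and 2873, 2664 and 2829 CPM in the cKO, with overlap. Timm and Tomm genes held 1911, 1919 and 2009 CPM and 2018, 1988 and 2047 CPM, with overlap at control replicate 3.

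The calls rested on few libraries. All 6 called members kept their direction when any 1 library was left out, and all 6 were called by DESeq2, which called 10 members in all against 16.9% of its genes. The 4 further ones, Slc25a11, Slc25a17, Slc25a29 and Timm23, are named because of these values. Without control replicate 2, control replicate 3, cKO replicate 1 or cKO replicate 3, edgeR called 0 of the members, with 9, 11, 12 and 9 at an unadjusted p below 0.05, where 3.48%, 5.4%, 3.98% and 1.02% of all tested genes were called. Without cKO replicate 2 it called Slc25a23 alone (6.31% of all). Without control replicate 1 it called 11, 4 of the 6 among them (17.1% of all), and the highest of the 6 in adjusted p, Timm9 and Slc25a37, were not called under any of the 6 omissions.

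**Figure D4:**
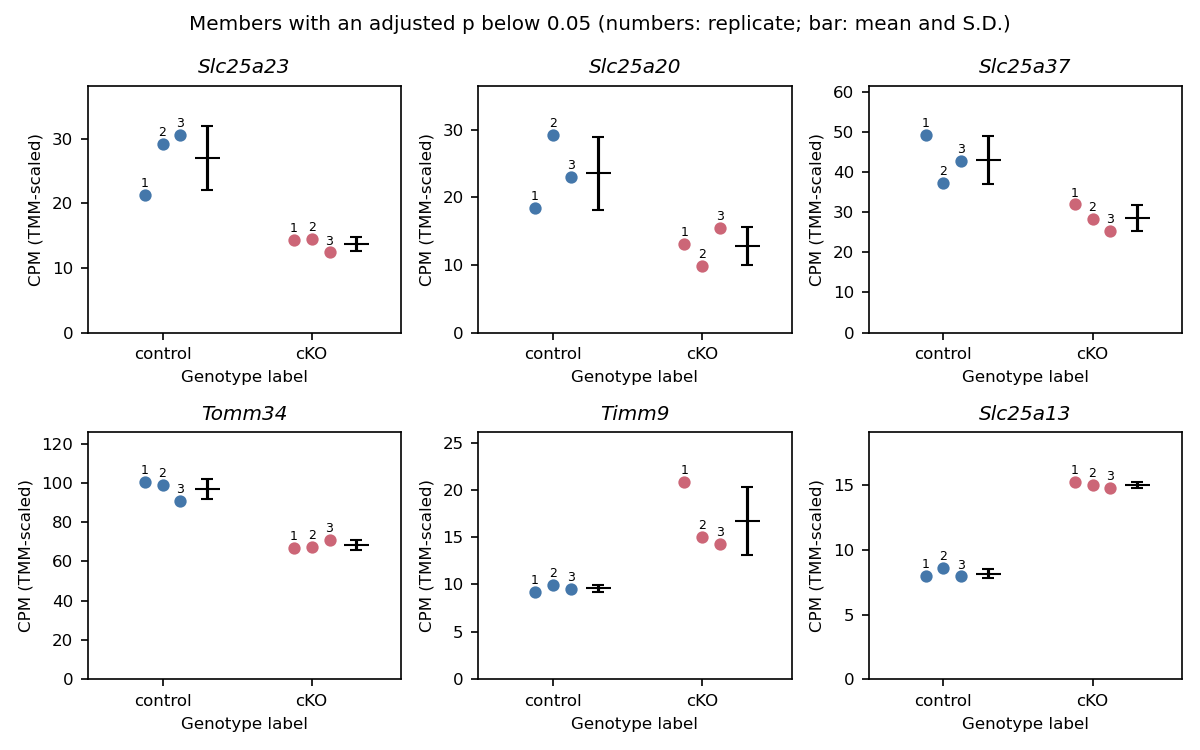
CPM of the 6 called members in each library (numbered by replicate), with the mean and SD of each group of 3 beside the points, on axes that start at 0. The control and cKO libraries do not overlap in any of the 6, and the smallest gap in CPM is that of Slc25a20, between 18.4 CPM in control replicate 1 and 15.5 CPM in cKO replicate 3.

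Proteins that work with the translocases were read from a list of 29 import partners, all tested, of which 3 rose and 2 fell (17.2%, beside 10.4% of all genes). The 3 that rose were matrix chaperones that pull in or fold imported proteins. Other motor and matrix chaperone genes of the list were not called: Grpel1, Grpel2, Dnaja3, Pam16, Dnajc19, Dnajc15 and Dnlz. Their log2 differences ran from -0.33 (Dnajc15) to 0.22 (Grpel2). Hspa9, the heat shock protein at the core of the import motor, lay at 207, 192 and 218 CPM in the controls and 366, 314 and 361 CPM in the cKO (log2 fold change 0.76, SE 0.11, edgeR adjusted p = 0.00611). Hspd1 and its lid Hspe1, which form the matrix folding chamber, rose by 0.83 (SE 0.12, edgeR adjusted p = 0.00598) and 0.70 (SE 0.17, edgeR adjusted p = 0.0330). With 1 library left out, the edgeR adjusted p of Hspe1 reached 0.117. Hspa9 binds Timm44, and Timm44 itself was not called. The 2 that fell were Mtch1, an outer membrane protein related to the Slc25 carriers, by 1.48 (SE 0.26, edgeR adjusted p = 0.00968), and Dnajc11 by 0.64 (SE 0.14, edgeR adjusted p = 0.0177). Mtch1 lay at 58.5, 130 and 127 CPM in the controls and 40.7, 39.8 and 32.7 CPM in the cKO, so control replicate 1 sat well below the other controls.

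Solute transporters of mitochondria outside the rule were read from a list of 22, of which 20 were tested, 3 fell and 0 rose by edgeR's test (15% called, beside 10.4% of all tested genes called and 5.89% called lower). Of the 20, 15 had negative differences, with a median of -0.13, where 50.2% of all tested genes had negative ones. The 3 were Sfxn3, a serine transporter, by 0.89 (SE 0.15, edgeR adjusted p = 0.00886), Micu2, a regulator of the calcium uniporter, by 0.73 (SE 0.14, edgeR adjusted p = 0.0112), and Ucp2, by 0.65 (SE 0.16, edgeR adjusted p = 0.0308). Ucp2 belongs to the Slc25 family by sequence but its symbol keeps it outside the rule. It lay at 759, 1143 and 1129 CPM in the controls and 687, 664 and 581 CPM in the cKO, with no overlap. Ucp1 and Ucp3, its relatives of brown fat and muscle, had 0 counts in all 6 libraries.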

How the data were processed

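RNA was extracted from sorted DP thymocytes, cDNA was pre-amplified, and 6 libraries were sequenced. The study's methods and the labels name different library kits. The submitters' processing notes name fastp 0.18.0, Bowtie2 2.2.8, HISAT2, StringTie 1.3.1 and RSEM, while no source used here gives the genome build or the use of strand in counting. In the table the authors deposited, the count columns hold whole-number read counts per gene with no normalization, and the FPKM columns hold expression values that the authors scaled for gene length and depth. The authors' group means and columns of their own comparison (log2 ratios and p-values) were not used.

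Groups and replicate numbers came from the labels. The sample titles read WT-DP for the controls and Lck-KO-DP for the cKO, and the study's methods give littermate Paxbp1fl/fl mice as controls. Nothing says that the libraries came from separate mice, so p-values measure the spread between these samples, which may be technical. Counts were tested across all genes with edgeR 4.0.16 in R 4.3.3 (TMM scaling, genes kept at a minimum count of 10 and a total of 15, quasi-likelihood test, Benjamini-Hochberg adjustment), after a test on simulated data. The study's methods name DESeq2, used here as an alternative (1.42.0) beside limma-voom (limma 3.58.1). CPM are TMM-scaled. Ratios within a library were compared by exact permutation over the 20 assignments. No counting intervals are given. The SE of a log2 difference is its absolute value divided by the square root of edgeR's F statistic. That statistic uses a dispersion moderated across genes, so this SE is not the gene's own spread between libraries. The SE of a difference of log2 ratios came from the spread between libraries.

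The members, roles, pairs and lists were chosen with earlier results of these data known. Values are given for members at an adjusted p below 0.05, the 5 highest in mean FPKM, a core chosen by role, the members of the pairs, and partner genes at an adjusted p below 0.05. Promoters were searched over 250 bases before the start for the 58 members with a RefSeq window, and 14 had none. Protein sequences were not used here. 1 tested member is counted in the totals and is not reported here singly.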

Additional observations from a re-analysis of the deposited data

How the results depend on the processing

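DESeq2 called 6 Slc25 genes lower in place of 3 and 2 Timm and Tomm genes higher in place of 1, and limma-voom called 0 Timm and Tomm genes higher (Timm9 at an adjusted p of 0.0538). RLE factors or total counts alone lost Slc25a37, the filter at 5 CPM changed no call, and testing every gene with a count added Slc25a17. Replicate numbers did not pair the libraries (correlations of deviations 0.0451, 0.0377 and -0.03), and a fit with the replicate number as a block left 1 Slc25 gene lower and 0 Timm and Tomm genes higher, without Slc25a20, Slc25a37 and Timm9. With 1 library left out, Slc25 genes called higher ranged from 0 to 4 and lower from 0 to 4, Timm and Tomm genes called higher from 0 to 1 and lower from 0 to 2, and members past both the fold and the adjusted p from 0 to 2 (Slc25a20 and Slc25a23 without control replicate 1, Slc25a23 without cKO replicate 2). Import partners called ranged from 2 without cKO replicate 3 to 8 without control replicate 1, and other transporters from 0 to 3. Each of these fits had fewer libraries, and any further cause was not tested. The median log2 difference stayed between -0.003 and 0.083 for Slc25 and between -0.048 and 0.074 for Timm and Tomm.

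Differences near 0 changed sign when 1 library was left out, with log2 values from -0.26 to 0.11 for Slc25a10, -0.45 to 0.10 for Slc25a24, -0.043 to 0.15 for Slc25a3, -0.045 to 0.41 for Slc25a32, -0.024 to 0.10 for Slc25a4, -0.30 to 0.11 for Slc25a40 and -0.20 to 0.0023 for Slc25a51. They were -0.079 to 0.11 for Timm13, -0.013 to 0.17 for Timm17a, -0.048 to 0.22 for Timm17b, -0.10 to 0.13 for Timm8b, -0.0043 to 0.12 for Tomm20, -0.023 to 0.071 for Tomm22, -0.077 to 0.12 for Tomm40, -0.31 to 0.033 for Tomm40l and -0.012 to 0.18 for Tomm5. The difference of the log2 ratio Timm17a/Timm17b ranged from -0.18 to 0.44 and was -0.047 from CPM in place of FPKM. A planned reading of protein motifs was not run, since protein sequences were not used here. Depth limits what can be said of the 11 members below the count filter and of those under 10 CPM.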
